A study of Mus musculus with 24 samples.

Results

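The Ccl2 to Ccl8 cluster is a row of 5 CC chemokine genes on mouse chromosome 11, namely Ccl2, Ccl7, Ccl11, Ccl12 and Ccl8. Its members here are the ChIP-seq peaks that overlapped a 120 kb window, chr11:81830000-81950000 on mm9, in any of 24 peak lists. The window held 106 of 756484 peaks, and 18 of the 24 lists had at least 1 peak in it. The genes lie near 81.849 (Ccl2), 81.859 (Ccl7), 81.871 (Ccl11), 81.915 (Ccl12) and 81.928 Mb (Ccl8), positions that are given to the nearest kb. Each base of the window was assigned to the nearest of these positions, which gave segments of 24, 11, 28, 28.5 and 28.5 kb in the same order. In the RefSeq gene order of GRCm38, the lncRNA gene Gm38913 lies between Ccl11 and Ccl12, and Ccl1 follows Ccl8.

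The cells were primary bone marrow-derived macrophages of FVB/Hsd mice at day 7 of differentiation, infected with a retrovirus and selected with puromycin. Wdr82 was targeted by 1 hairpin, sh1137 (shWdr82), and controls carried the empty vector LMP for H3K4me3 and H3K27ac or a scrambled hairpin for the other 4 antibodies. These were against H3K4me1, H3K36me3, RNA polymerase II of any form (total Pol II) and the form with phosphate on serine 2 of its tail (Ser2P). Cells were untreated or had 10 ng/ml of lipopolysaccharide (LPS), for 4 h in the first pair of antibodies and 45 min in the other 4, as the sample titles give it, while the treatment protocol names 4 h alone. Each of the 24 groups was 1 library, so differences have no replicate check and no test was run. Read depth is unknown, and the lists held 14420 to 65149 peaks. The level of Wdr82 and the macrophage markers were not analysed here.

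CC chemokines are small secreted proteins that draw leukocytes to sites of inflammation. CCL2, CCL7 and mouse CCL12 act on monocytes through the receptor CCR2, CCL11 (eotaxin) draws eosinophils through CCR3, and mouse CCL8 acts through CCR8. Macrophages given LPS make CCL2 and CCL7 within hours. H3K4me3 marks active promoters, H3K4me1 marks enhancers, H3K27ac marks both when active, Ser2P marks elongating Pol II, and H3K36me3 is laid down over transcribed gene bodies. WDR82 is a subunit of the SET1 complexes that methylate H3K4 and of a phosphatase complex with PNUTS.

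The Ccl12 and Ccl8 upstream sequences are shown because they are the members with a sequence at hand, and their marks differed: Ccl12 had H3K27ac, H3K4me1 and total Pol II peaks in all 4 libraries of each, and Ccl8 had H3K27ac in the LPS libraries and nothing in the untreated ones. The RefSeq promoter table (GRCm38.p6) matched 2 of the 5 members, and Ccl2, Ccl7 and Ccl11 are named only. The 250 bases before each start are given on the plus strand, at chr11:82101595-82101844 for Ccl12 and chr11:82114935-82115184 for Ccl8 on that build. Capitals mark the matches to any of 6 motifs, searched on both strands: the core promoter element TATAAA, the PU.1 core GAGGAA, the C/EBP site TTGCNNAA, the AP-1 site TGANTCA, and the consensus sequences of the interferon-stimulated response element and of NF-kB.

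Ccl12: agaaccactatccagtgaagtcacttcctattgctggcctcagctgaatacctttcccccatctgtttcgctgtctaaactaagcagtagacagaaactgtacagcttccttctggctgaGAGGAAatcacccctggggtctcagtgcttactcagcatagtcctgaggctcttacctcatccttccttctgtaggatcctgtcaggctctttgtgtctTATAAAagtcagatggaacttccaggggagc

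Ccl8: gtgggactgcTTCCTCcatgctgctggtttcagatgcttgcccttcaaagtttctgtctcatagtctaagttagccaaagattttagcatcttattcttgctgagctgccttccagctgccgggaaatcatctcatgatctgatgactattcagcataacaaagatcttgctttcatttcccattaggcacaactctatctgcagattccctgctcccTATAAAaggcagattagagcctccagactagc

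Both held TATAAA close to the start, at -31 to -26 in Ccl12 and -32 to -27 in Ccl8, a motif found in 12.4% of 32851 upstream sequences of this length. Both also held GAGGAA, at -130 to -125 in Ccl12 and, on the other strand, at -240 to -235 in Ccl8, against 23.3% of all. No match to TTGCNNAA (9.56% of all), TGANTCA (6.75%), the interferon-stimulated response element (2.98%) or the NF-kB consensus (7.25%) was in either sequence. The longest stretch they shared was 8 bases, in 3 forms, and 1 of these began at -128 in both.

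**Figure D1:**
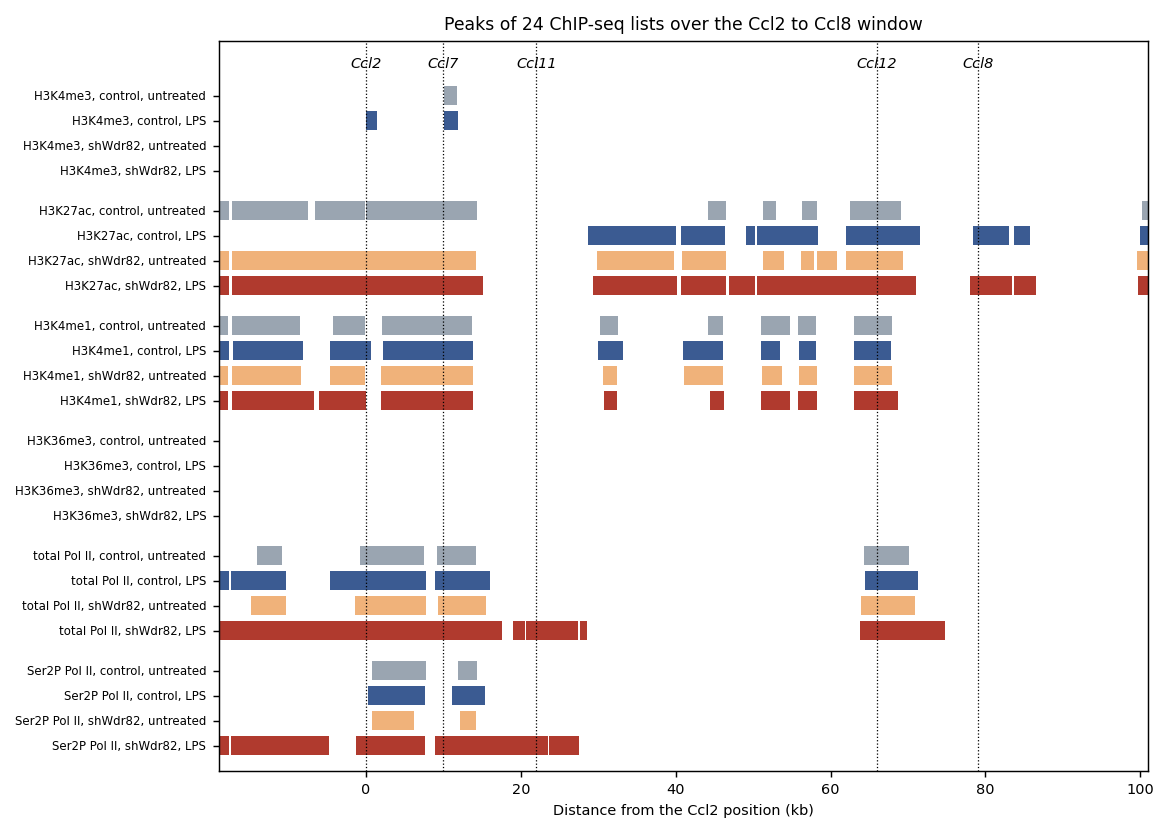
Peaks of the 24 lists over the window, 1 row per library, with distance from the Ccl2 position in kb on the x axis and dotted lines at the gene positions. Bars are peaks, clipped at the window edges. H3K36me3 has none, H3K4me3 has 3, and a total Pol II bar of shWdr82 cells after LPS runs unbroken over Ccl2 and Ccl7. The Ser2P bars of shWdr82 cells after LPS have a break of 1278 bp between Ccl2 and Ccl7.

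Ccl2, the main monocyte chemoattractant gene, had a peak within 1 kb of its position in 16 of 24 libraries, the most of the 5 genes. Total Pol II peaks there scored 3100 in all 4 libraries, a value shared by many peaks that 3.27% to 4.87% of the peaks in those lists reached. Total Pol II covered 9.06 kb of the 24 kb Ccl2 segment in scrambled untreated cells, 18.0 kb in scrambled LPS, 10.9 kb in shWdr82 untreated and 23.9 kb in shWdr82 LPS cells. The LPS libraries were thus the wider ones in both vectors.

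Ser2P covered 4.18 kb of the Ccl2 segment in scrambled untreated, 4.80 kb in scrambled LPS, 4.26 kb in shWdr82 untreated and 20.3 kb in shWdr82 LPS cells. The segment ends at chr11:81854000 and cuts the peak at Ccl2 in each library. The whole peak was 6882 bp in scrambled untreated, 7460 bp in scrambled LPS, 5445 bp in shWdr82 untreated and 8858 bp in shWdr82 LPS cells. Within the segment, the first 3 libraries lay close together and the shWdr82 LPS library apart from them. In the former the peak began above the Ccl2 position, which is given to the nearest kb. The offset was 823 bp in scrambled untreated, 203 bp in scrambled LPS and 740 bp in shWdr82 untreated cells. In shWdr82 LPS cells the peak spanned the position, at chr11:81847722-81856579. A further Ser2P peak there covered chr11:81831514-81844259, where no other Ser2P list had a peak.

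At Ccl2, H3K4me3 was called in empty vector LPS cells alone, at chr11:81849017-81850447 with a score of 104.89, and 87.5% of that list scored at least as high. It is the one H3K4me3 region of the window held by a single library, and 15.4% of 21626 H3K4me3 regions were of that kind. H3K4me1 had a break of 1611 to 2215 bp between its peaks at Ccl2 in all 4 libraries. By the Ccl2 position as given, the break held it in 3 of them. It lay just above the position in scrambled LPS cells, where a peak covered the position. The position is given to the nearest kb, so these placements are not exact. The part shared by the 4 breaks was chr11:81849605-81850930. The H3K4me3 peak overlapped this break.

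Ccl7, whose product also attracts monocytes, was the one member with H3K4me3 in both empty vector libraries. The peak was at chr11:81859030-81860727 with a score of 165.78 in untreated cells, and at chr11:81859133-81860938 with 352.35 after LPS. Neither shWdr82 library had an H3K4me3 peak anywhere in the window, and their nearest ones lay 701085 bp (untreated) and 342886 bp (LPS) from the Ccl7 position. Outside the window, the empty vector lists had none nearby either. Their nearest outside peaks lay 610040 bp (untreated) and 402227 bp (LPS) from the window edge, against 610085 and 251886 bp in the shWdr82 lists. A peak in both empty vector lists and neither shWdr82 list was found for 1.41% of all H3K4me3 regions, against 2.68% for the reverse.

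The Ccl7 and Ccl2 H3K4me3 peaks were weak ones. Of the untreated list, 80.2% scored at least as high as the Ccl7 peak, and of the LPS list, 72.8%. Among empty vector peaks scoring between 0.5 and 2 times the Ccl7 value, 18.9% of 3517 had no peak in the shWdr82 list when untreated, and 7.22% of 2798 after LPS. For the Ccl2 peak after LPS the share was 24.8% of 3602. Absence of a peak of such strength from a shWdr82 list was thus not rare for the Ccl2 peak and the untreated Ccl7 peak. It was less common for the Ccl7 peak after LPS. Each share is for a single shWdr82 list, and a missing peak does not show that the mark was absent.

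At Ccl7, total Pol II again scored 3100 in all 4 libraries and covered 7.51 kb of the 11 kb segment in scrambled untreated, 9.88 kb in scrambled LPS, 9.04 kb in shWdr82 untreated and the whole segment in shWdr82 LPS cells. Ser2P covered 5.10, 7.01, 3.30 and 9.72 kb in the same order. These lengths, like those of total Pol II, take in part of the peak at Ccl2. The Ser2P peak nearest to Ccl7 was itself 2391, 4342, 2111 and 14677 bp wide in that order. This peak lay 1058 to 2138 bp above the Ccl7 position in the first 3 libraries and spanned it in shWdr82 LPS cells. H3K4me1 covered 79.6% to 80.6% of the segment in the 4 libraries, which differed little in length. The rank of its peak did differ. In shWdr82 untreated cells 31.8% of the list scored at least as high. The shares were 3.4% in scrambled untreated, 5.3% in scrambled LPS and 4.1% in shWdr82 LPS cells.

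H3K27ac formed a wide domain over Ccl2 and Ccl7 in 3 libraries. It covered 31.9 kb of their joint 35 kb in empty vector untreated cells, 32.8 kb in shWdr82 untreated and 33.7 kb in shWdr82 LPS cells. The peak of 31484 bp in shWdr82 untreated cells was among the widest 0.117% of its list. In empty vector LPS cells no H3K27ac peak was listed from chr11:81429348 to 81877662, a stretch of 448315 bp that takes in both genes. Most of it, chr11:81429685-81808430 (378746 bp), had no peak in the shWdr82 LPS list either. The 2 LPS lists thus differed over the part that holds the genes. The empty vector LPS cells had H3K4me3 peaks at both genes.

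Gaps over strong H3K27ac regions were rare. Of 5679 H3K27ac regions with scores of at least 1000 in the other 3 libraries, 7 had no peak in the empty vector LPS list (0.123%), and the domain over Ccl2 and Ccl7 was among them. The counts were 0, 0 and 1 for the empty vector untreated, shWdr82 untreated and shWdr82 LPS lists. What lies behind the gap was not tested, and values for the empty vector LPS library are also given without the 35 kb of Ccl2 and Ccl7.

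Ccl11, the eotaxin gene, had no histone mark within 1 kb of its position in any library. Total Pol II and Ser2P peaks lay there in shWdr82 LPS cells alone, with scores of 193.85 and 1254.17. The former ran over chr11:81869653-81876349, and the latter, at chr11:81857858-81872534, reached from Ccl7 over the Ccl11 position. In the other 3 libraries the nearest total Pol II peak was 5941 to 7729 bp away and the nearest Ser2P peak 6600 to 7751 bp.

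Peaks in shWdr82 LPS cells alone made up 5 regions of the window, 3 of total Pol II and 2 of Ser2P, and together these spanned the Ccl11 position and the stretch below Ccl2. Regions of 1 library were common for Pol II, at 35.3% of 37496 total Pol II and 63.8% of 30111 Ser2P regions. The shWdr82 LPS library held 3171 of 13223 such total Pol II regions and 5266 of 19224 such Ser2P regions, so most of them were in other libraries.

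Past the Ccl11 position, toward Ccl12, lay H3K27ac of a distal kind. It covered 0 kb of the Ccl11 segment in empty vector untreated, 14.6 kb in empty vector LPS, 13.1 kb in shWdr82 untreated and 14.3 kb in shWdr82 LPS cells. The empty vector untreated library stood apart from the other 3. H3K4me1 covered 2.32, 6.22, 4.89 and 1.71 kb there in scrambled untreated, scrambled LPS, shWdr82 untreated and shWdr82 LPS cells. Thus shWdr82 was the wider of the pair when untreated and the narrower after LPS. This rests on a peak at the segment end, chr11:81893000. The peak began below that end in scrambled LPS (81889956) and shWdr82 untreated cells (81890010), and above it in scrambled untreated (81893196) and shWdr82 LPS cells (81893366). In shWdr82 untreated cells 82.8% of the list scored at least as high.

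Ccl12, a mouse monocyte chemoattractant gene, had H3K27ac, H3K4me1 and total Pol II at its position in all 4 libraries of each and no H3K4me3, Ser2P or H3K36me3 in any. H3K27ac scored 3100 in all 4. It covered 12.6 kb of the 28.5 kb segment in empty vector untreated, 21.1 kb in empty vector LPS, 16.8 kb in shWdr82 untreated and 26.3 kb in shWdr82 LPS cells. Both LPS libraries thus lay above both untreated ones, and within each treatment shWdr82 lay above the empty vector. Total Pol II covered 5.73 kb (scrambled untreated), 6.86 kb (scrambled LPS), 7.00 kb (shWdr82 untreated) and 8.70 kb (shWdr82 LPS), while H3K4me1 stayed between 11.5 and 13.6 kb. Of total Pol II regions, 28.8% were held by all 4 libraries, and of H3K27ac regions 44.0%.

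Ccl8 had a peak at its position in LPS libraries alone. An H3K27ac peak spanned its position in empty vector LPS cells, at chr11:81927446-81932096 with a score of 639.65, and in shWdr82 LPS cells, at chr11:81927050-81932492 with 1525.86. The nearest H3K27ac peak of the untreated lists was 9907 bp (empty vector) and 9663 bp (shWdr82) away. No other antibody had a peak within 1 kb in any library, and the nearest H3K4me1 peak was 10350 to 11174 bp away. A second H3K27ac region next to it, chr11:81932672-81935587, had the same pattern with scores of 250.05 and 619.83. Total Pol II reached into the Ccl8 segment in shWdr82 LPS cells, by 2.25 kb, and its peak ended 4253 bp short of the position.

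Counted over the window, 3 of 9 merged H3K27ac regions were held by both LPS libraries and neither untreated one, and 0 by both untreated libraries alone. Of all 39645 H3K27ac regions, 12.4% had the former pattern and 15.8% the latter. The third such region was a weak one between Ccl11 and Ccl12, chr11:81895878-81899207. With peaks of a library joined across gaps of up to 1000 bp the count was 1, since that region and the second Ccl8 region were then taken up by their neighbours.

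**Figure D2:**
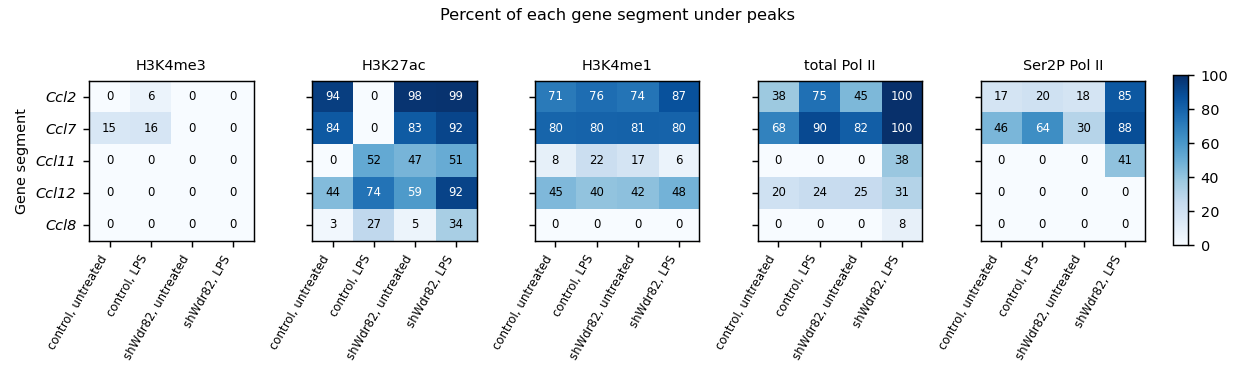
Percent of each gene segment under peaks, by antibody and library; H3K36me3, with 0 everywhere, is left out. Rows are genes in chromosome order and darker cells are more fully covered. The Ccl8 row has H3K27ac mostly in the LPS columns (26.9% and 34.0%), and the Ccl2 and Ccl7 rows are 0 for H3K27ac in control LPS cells.

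The whole window was covered by H3K27ac over 45.3 kb in empty vector untreated, 43.3 kb in empty vector LPS, 64.2 kb in shWdr82 untreated and 84.1 kb in shWdr82 LPS cells. The LPS to untreated ratio was 0.956 in empty vector and 1.31 in shWdr82 cells, neither past 1.5-fold. Of all 120 kb windows in which either list covered at least 5%, 21.1% were at least 1.5-fold lower with LPS in empty vector and 23.1% at least 1.5-fold higher in shWdr82 cells. Without Ccl2 and Ccl7, the remaining 85 kb held 13.4, 43.3, 31.4 and 50.3 kb in the same order. The LPS to untreated ratio was then 3.24 in empty vector and 1.60 in shWdr82 cells. Of all 85 kb windows, 32.2% and 24.6% were at least 1.5-fold higher with LPS in these vectors, and 13.4% and 22.6% had a ratio as high.

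Total Pol II was wider after 45 min of LPS in both vectors. It covered 22.3 kb of the window in scrambled untreated and 34.8 kb in scrambled LPS cells, a ratio of 1.56, and 26.9 and 56.6 kb in shWdr82 cells, a ratio of 2.10. Over 120 kb windows of the genome in which both lists had peaks, the median ratios were 0.721 and 0.729. The LPS lists covered 0.797 and 0.889 times the length of the untreated ones. In scrambled cells 19.2% of windows were at least 1.5-fold higher with LPS, and in shWdr82 cells 24.8%. The direction here was thus opposite to that of the median window, in company with many others.

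Ser2P covered 9.27 kb of the window in scrambled untreated and 11.8 kb in scrambled LPS cells, a ratio of 1.27, and 7.56 and 41.5 kb in shWdr82 cells, a ratio of 5.49. In scrambled cells 24.3% of windows were at least 1.5-fold higher with LPS. In shWdr82 cells 45.5% of windows were at least 1.5-fold higher with LPS. Among the 3111 windows in which both lists had peaks, 8.10% had a ratio as high as this one. The shWdr82 LPS list as a whole covered 1.41 times the length of the untreated one. The Ser2P domain of the shWdr82 LPS library ran on below the window, with a peak of 51295 bp at chr11:81780008-81831302, among the widest 0.0670% of its list. Shorter Ser2P peaks lay within that stretch in other libraries. These included chr11:81785403-81807338 in shWdr82 untreated and chr11:81796045-81800635 in scrambled LPS cells. Scrambled untreated cells had none there.

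**Figure D3:**
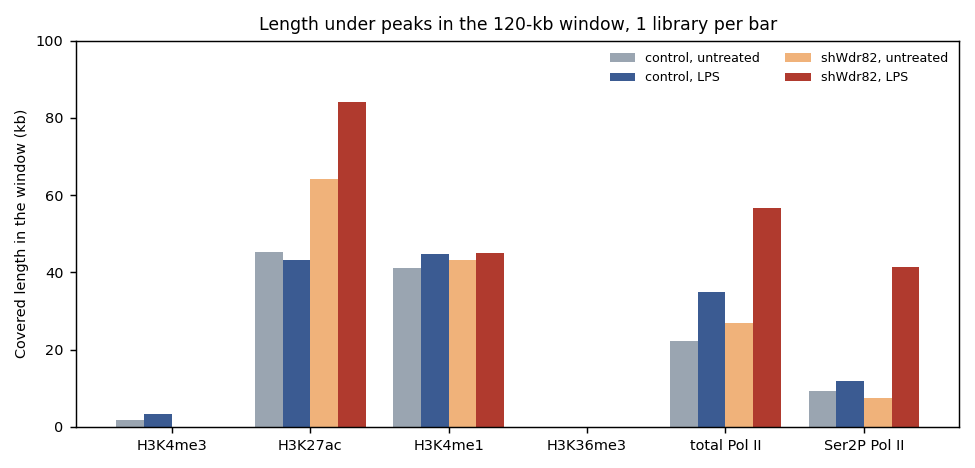
Length under peaks in the 120 kb window, in kb, for the 6 antibodies; each bar is 1 library. H3K4me1 is level at 41.0 to 45.1 kb, and for Ser2P the shWdr82 LPS library, at 41.5 kb, stands above the other 3, at 7.56 to 11.8 kb.

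Between shWdr82 and control cells, both forms of Pol II covered more of the window in shWdr82 cells after LPS. The shWdr82 to scrambled ratio was 3.51 for Ser2P and 1.63 for total Pol II after LPS, and 0.815 and 1.21 in untreated cells. In untreated cells 18.8% of windows were at least 1.5-fold lower in shWdr82 for Ser2P, and 9.95% at least 1.5-fold higher for total Pol II. After LPS, 35.8% were at least 1.5-fold higher for Ser2P and 22.3% for total Pol II. Among windows in which both lists had peaks (3027 for Ser2P and 3879 for total Pol II), 7.57% and 18.1% had a ratio as high. The shWdr82 LPS lists covered 1.36 and 1.06 times the length of the scrambled LPS lists, so the Ser2P list as a whole was also the wider one.

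H3K27ac was 1.42 times as wide in shWdr82 as in empty vector untreated cells and 1.94 times after LPS, past 1.5-fold in the latter, where 2.33% of windows were at least 1.5-fold higher, against 5.85% in untreated cells. The LPS value rests on the gap over Ccl2 and Ccl7 in the empty vector LPS list. Without those segments it was 1.16 after LPS, not past 1.5-fold, where 3.37% of 85 kb windows were at least 1.5-fold higher. In untreated cells it was 2.35, where 7.21% were that much higher and 1.31% had a ratio as high. In untreated cells the difference lay largely in the Ccl11 segment, at 13.1 against 0 kb. The shWdr82 untreated peaks there were not strong ones, as 67.4% and 56.2% of that list scored at least as high.

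H3K4me1 differed little between libraries in covered length. Its 4 libraries covered 41.0, 44.9, 43.3 and 45.1 kb in scrambled untreated, scrambled LPS, shWdr82 untreated and shWdr82 LPS cells, and each of its 4 ratios lay between 1.00 and 1.09. At least 1.5-fold higher were 3.92% (LPS, scrambled), 6.45% (LPS, shWdr82), 4.56% (shWdr82, untreated) and 4.79% (shWdr82, LPS) of windows. Its 9 merged regions in the window were held by all 4 libraries, as were 52.8% of H3K4me1 regions in the genome. Of these 9, H3K27ac overlapped 4 in all 4 of its libraries and 5 in 3 of them. The 4 regions between Ccl11 and Ccl12 had H3K27ac and no Pol II peak in any library. Total Pol II overlapped 4 regions in all 4 libraries, namely the 3 around Ccl2 and Ccl7 and the one at Ccl12.

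**Figure D4:**
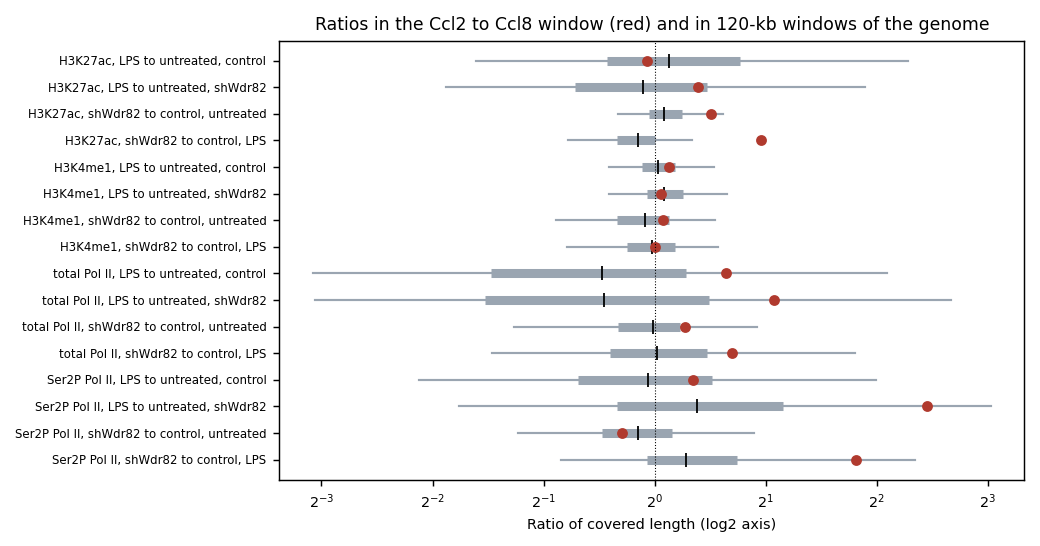
Ratios of covered length in the window (red points) for 4 antibodies and 4 comparisons, on a log2 axis. Grey bars span the 25th to 75th and thin lines the 5th to 95th percentiles of the same ratio over 120 kb windows in which both lists had peaks, and ticks mark medians. H3K27ac in shWdr82 against control after LPS (1.94) lies beyond the thin line, and Ser2P ratios after LPS in shWdr82 cells lie in its upper part.

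No H3K36me3 peak was listed in the window in any of the 4 libraries, although Ser2P and total Pol II were called over Ccl2 and Ccl7 in all of theirs. The nearest H3K36me3 peaks below the window were 1540831 bp (scrambled untreated), 1541260 bp (scrambled LPS), 33310 bp (shWdr82 untreated) and 20541 bp (shWdr82 LPS) away. Of 1184 windows in which Ser2P covered at least 7.56 kb in each of its 4 lists, this was the 1 window with no H3K36me3 peak (0.0845%). Of 621 windows with total Pol II over at least 22.3 kb in each list, 3 had none (0.483%). The lengths in both counts were set at the lowest value of the Ccl2 to Ccl8 window itself. H3K4me3 covered 1.70 kb of the window in empty vector untreated cells, 3.24 kb in empty vector LPS and 0 kb in both shWdr82 libraries. Of 113 windows with at least 43.3 kb of H3K27ac in each list, 11 (9.73%) had no H3K4me3 peak in either shWdr82 list. Most of those, 8 windows (7.08% of the 113), had none in any of the 4 lists. The Ccl2 to Ccl8 window was unlike these 8, with H3K4me3 in both empty vector lists.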

How the data were processed

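The deposited files are peak lists, 1 per library, on the mm9 build. The submitters' processing notes name Bowtie 0.12.7 and MACS 1.4. Input control, read depth and filters: not given in the sources used here. Each deposited peak carries a score set by the authors, from 50 to 3233 with many ties at 3100. Here it ranked or filtered peaks inside 1 list and compared no lists.

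Peaks overlapping the window by at least 1 bp were taken from all 24 lists. Covered length is the number of bases under peaks of a list. Peaks of the 4 libraries of an antibody were merged where they shared at least 1 bp. Each group holds 1 library, so no test was run, and a difference is called only when covered lengths differ at least 1.5-fold. The same rule was applied to every window of equal length on the same grid in which either list covered at least 5% of the length. Shares of 120 kb windows with a ratio as high leave out windows in which either list had no peak. Those of 85 kb windows keep them. The interval functions were tested on simulated data. Python 3.11.15, pandas 2.3.3 and numpy 2.4.6 were used. The genes named are the 5 members; the members, segments and settings were chosen with earlier results of these data known. Other chemokine and receptor genes and macrophage markers were not analysed here, since the gene table at hand is on GRCm38.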

Additional observations from a re-analysis of the deposited data

Results flagged for a closer look

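The Ser2P ratio of shWdr82 to scrambled cells over the 120 kb window was 0.815 in untreated cells and 3.51 after 45 min of LPS. It was singled out because the untreated and LPS libraries lay on opposite sides of 1. The difference between these ratios was not tested, since each rests on 1 library a group. Among the gene segments, Ccl2 had 4.26 against 4.18 kb untreated and 20.3 against 4.80 kb after LPS. Its segment cuts the peak at Ccl2, whose whole width was 5445 against 6882 bp untreated and 8858 against 7460 bp after LPS.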

How the results depend on the processing

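The 17 ratios of covered length moved by less than 1.5 times with a score of at least 100, with lists limited to equal numbers of peaks by score, or with gaps of up to 1000 bp joined. The Ser2P ratio after LPS ranged from 3.51 to 3.54. Counts of libraries at the gene positions moved by less than 1.5 times within 2 kb, with Ccl7 at 16. Joining gaps left 1 region held by both LPS libraries alone, by the joining itself. The planned stricter overlap, set on the shorter interval, is met by every peak. Requiring peaks over at least 0.5 of a region, chosen after seeing the data, left 11 regions held by all 4 libraries against 17, and gave 1 held by both shWdr82 libraries alone and 1 by control LPS and shWdr82 untreated, against 0 each. Leaving out the Ccl2 and Ccl7 segments, also chosen after seeing the data, gave H3K27ac ratios of 3.24 (LPS to untreated, control) and 1.16 (shWdr82 to control, LPS), where the empty vector LPS list has its gap. It gave 2.35 (shWdr82 to control, untreated), where both lists cover those segments almost equally, at 32.8 and 31.9 kb. No paired analysis was possible because each group holds 1 library, and for the same reason no library could be left out. Depth is unknown and no interval was given.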

Other observations

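In 10 lists of 4 antibodies (H3K27ac, H3K4me1, total Pol II and Ser2P), a domain below Ccl2 was broken at the same place, by 84 to 525 bp, with the 84 bp of chr11:81831419-81831502 common to all 10 breaks.

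The windows whose 24 covered lengths were most like those of the Ccl2 to Ccl8 window, among 3479 windows with at least 0.5 times its summed length, were chr1:64310001-64430000 (Pearson's r = 0.929), chr2:167510001-167630000 (r = 0.928) and chr11:83390001-83510000 (r = 0.922) on mm9. The 24 points share antibodies and lists, so r is a description, and no gene was assigned to these positions.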
